A study of Mus musculus with 15 samples.

Results

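The glutathione S-transferases described here were 10 genes, Gsta3, Gsta4, Gstm1, Gstm2, Gstp1, Gstt1, Gstt2, Gsto1, Gstk1 and Mgst1, taken by gene symbol from the 16774 genes of the deposited table. All 10 passed the filter on low values, at least 1 FPKM in at least 7 libraries, and were tested. FPKM is a transcript level scaled by transcript length and library total, so levels of different genes can be set side by side. The study measured RNA of mouse brown fat, a depot that burns lipid for heat, after exposure to bisphenol S (BPS), a bisphenol used in place of bisphenol A. There were 8 vehicle libraries (replicates 1 to 8) and 7 BPS libraries (replicates 1 to 6 and 8). The sources used here do not state dose, duration, route, strain, genotype, diet, age or sex. Nothing read in the labels says whether the libraries of a group came from separate animals, so the p-values measure the spread between these libraries.

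Glutathione S-transferases couple the thiol of glutathione to electrophilic compounds, a phase II step of detoxification that makes them easier to export. The cytosolic enzymes fall into classes named alpha (Gsta), mu (Gstm), pi (Gstp), theta (Gstt) and omega (Gsto), the kappa enzyme Gstk1 sits in mitochondria and peroxisomes, and Mgst1 is an unrelated membrane protein of the endoplasmic reticulum and outer mitochondrial membrane. In fat, the alpha enzyme Gsta4 is known for clearing 4-hydroxynonenal, a reactive aldehyde made when lipids are oxidised.

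The libraries had FPKM sums of 756556 to 920855 and 11527 to 12306 genes at 1 FPKM or more. Defining brown adipocyte markers were present, with Ucp1, the heat-producing uncoupling protein, at 1043 ± 707 FPKM (SD, n = 8) in vehicle and 1096 ± 600.2 (SD, n = 7) in BPS libraries. BPS replicate 4 stood at 82.3 FPKM of Ucp1. Of 10 brown adipocyte markers, 8 had a negative log2 change in BPS (median -0.28) and 0 passed, and 4 had one without BPS replicates 4, 5, 6 and 8 (median 0.15). The 10 markers summed to 10487 to 23100 FPKM in vehicle libraries, 14359 to 20943 in BPS replicates 1, 2 and 3, and 1543 to 13257 in BPS replicates 4, 5, 6 and 8. BPS replicates 4, 5, 6 and 8 stood apart in sex-chromosome transcripts, with Y-linked genes at 0.437%, 53.5%, 74.5% and 26.4% of the vehicle mean, against 82.9% to 114.7% in vehicle libraries and 92.0% to 102.2% in BPS replicates 1, 2 and 3. The same 4 libraries had summed white adipocyte markers of 3118 to 7652 FPKM, against 752 to 3142 in vehicle libraries and 508 to 1934 in the other BPS libraries. Their summed macrophage markers were 511 to 819 FPKM, above the 280 to 425 of vehicle libraries and the 276 to 329 of the other BPS libraries. Log2 changes are therefore given with and without these 4 libraries. Summed skeletal muscle markers were 79482, 76920.0 and 26372 FPKM in vehicle replicates 2, 6 and 8, against 299.6 to 9572 in the other vehicle libraries and 104.9 to 14399 in BPS libraries. Beyond fits below that take the Y-linked level or a marker score as covariate, the part of sex-chromosome and marker differences in the results was not tested. In bulk tissue, fewer cells of a type and less RNA per cell cannot be told apart.

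Promoters are shown for the most abundant member (Mgst1), the member that varied most between vehicle libraries (Gsta3) and the member with the largest change (Gstt1). They run from 250 bases before to 50 bases after the start, 5′ to 3′ on the gene's strand, from RefSeq on GRCm38.p6, the build named in the submitters' processing notes. Capitals mark matches to TGACNNNGC, the core of the antioxidant response element bound by NRF2, or to GCGTG, the core of the xenobiotic response element bound by the aryl hydrocarbon receptor, on either strand.
Mgst1, chr6:138140277-138140576, plus strand: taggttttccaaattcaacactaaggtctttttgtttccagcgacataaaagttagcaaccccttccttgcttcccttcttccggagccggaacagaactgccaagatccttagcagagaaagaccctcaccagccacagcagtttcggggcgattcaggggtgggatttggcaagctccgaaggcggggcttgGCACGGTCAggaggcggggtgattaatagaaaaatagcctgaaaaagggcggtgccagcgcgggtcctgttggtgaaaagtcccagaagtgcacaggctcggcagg
Gsta3, chr1:21240335-21240634, plus strand: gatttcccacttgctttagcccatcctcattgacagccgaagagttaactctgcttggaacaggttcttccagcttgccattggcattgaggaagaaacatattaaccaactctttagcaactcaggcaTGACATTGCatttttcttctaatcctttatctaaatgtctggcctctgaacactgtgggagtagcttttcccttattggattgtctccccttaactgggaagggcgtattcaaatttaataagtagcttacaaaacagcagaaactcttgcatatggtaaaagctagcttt
Gstt1, chr10:75797682-75797981, minus strand: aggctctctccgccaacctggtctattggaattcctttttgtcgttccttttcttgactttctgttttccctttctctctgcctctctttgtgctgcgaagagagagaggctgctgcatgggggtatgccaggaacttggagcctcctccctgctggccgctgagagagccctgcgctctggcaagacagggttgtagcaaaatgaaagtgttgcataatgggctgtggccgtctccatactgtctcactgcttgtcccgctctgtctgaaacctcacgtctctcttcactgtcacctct
The TGACNNNGC match began at position -56 from the start in Mgst1, on the opposite strand, and at -121 in Gsta3. Mgst1 has another listed promoter, at chr6:138141337-138141636 and not shown, which held neither motif. Neither motif was found in this window of Gstt1. The Gstt1 window lies within the annotated gene, which reaches to 75798584, so the sequence at that end was not searched. Among the 8 members with a promoter in the table, 2 held TGACNNNGC (Gsta3 and Mgst1), against 14.0% of 27025 genes. GCGTG was held by 2 of the 8 (Gstm1 and Gstp1), against 35.2% of genes. These matches describe letters in a window and not bound sites.

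In vehicle tissue the members spanned from Mgst1 at 1079 ± 218 FPKM (SD, n = 8) down to Gsta3 at 25.3 ± 10.8 (SD, n = 8). The order by mean was Mgst1, Gstp1, Gstm1, Gsto1, Gstm2, Gstk1, Gstt2, Gsta4, Gstt1 and Gsta3, and the order by median was the same. Mgst1, Gstp1 and Gstm1 each lay above the next member in every vehicle library's range, and so did Gstt1 above Gsta3. Neighbours from Gsto1 to Gstt1 overlapped in their ranges over vehicle libraries. Mgst1 alone made up 34.6% to 47.6% of the members' summed FPKM in the 15 libraries. The sum was 2449 ± 274 FPKM (SD, n = 8) in vehicle and 2802 ± 433 (SD, n = 7) in BPS libraries. Spread differed between members, with a coefficient of variation over vehicle libraries of 42.5% for Gsta3, 36.2% for Gsta4 and 24.9% for Gstt1, against 7.15% for Gstm1 and 8.05% for Gstp1.

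**Figure D1:**
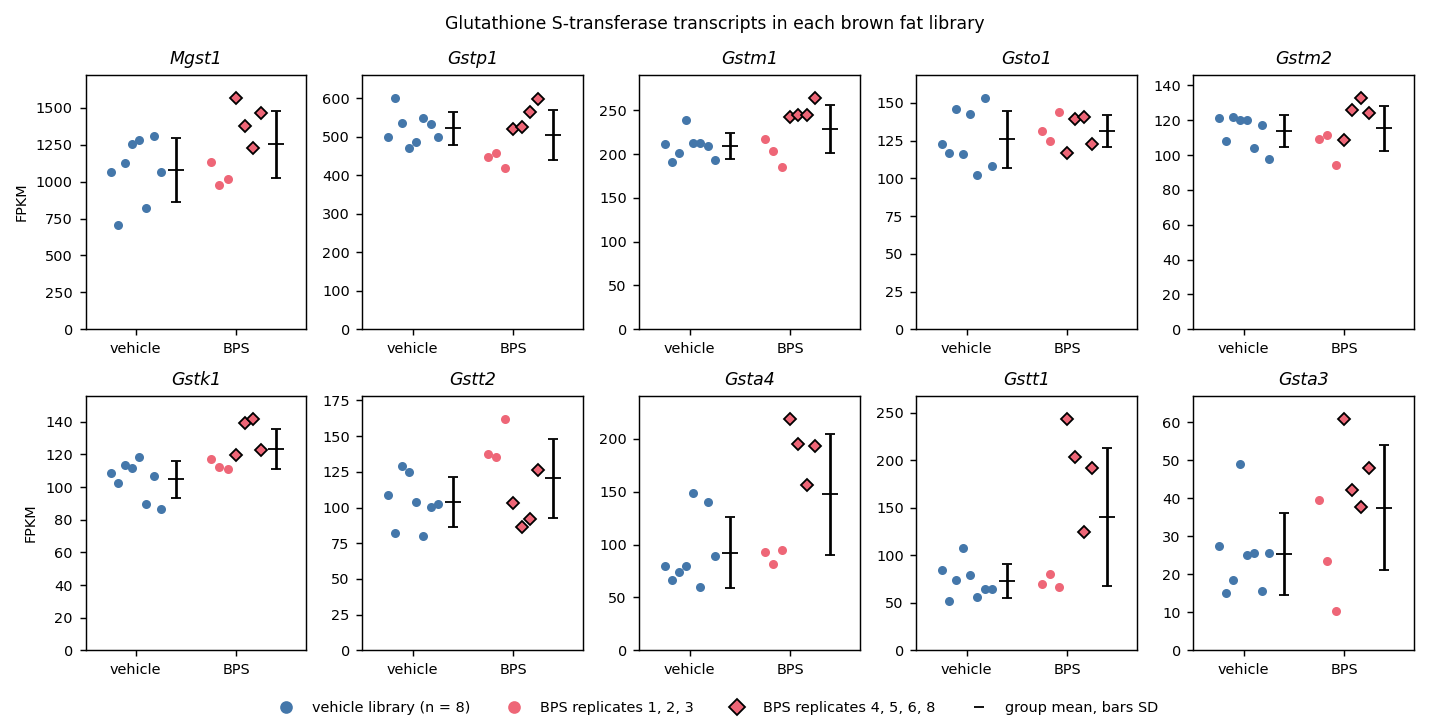
FPKM of the 10 members in each library (1 panel a gene, linear axis), with group means and SDs; diamonds mark BPS replicates 4, 5, 6 and 8. In the Gstt1 panel these diamonds lie at 124.3 to 243.9 FPKM, above the vehicle maximum of 108.1, while BPS replicates 1, 2 and 3 lie at 66.8 to 80.7.

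No member passed the threshold between BPS and vehicle (0 of 10 at a Benjamini-Hochberg adjusted p under 0.05, limma on log2(FPKM + 1)). Of all 12156 tested genes 50 passed, 0.411%, with 42 higher (0.346%) and 8 lower (0.0658%) in BPS. An unadjusted p under 0.05 was reached by 3 of 10 members, Gsta4, Gstt1 and Gstk1, against 23.1% of all tested genes. The log2 change was positive for 9 of 10 members with a median of 0.21, beside 58.5% of all tested genes and a median of 0.05. Without BPS replicates 4, 5, 6 and 8, the change was positive for 5 of 10 members with a median of 0.00, and again 0 of 10 passed, beside 34 of 11885 tested genes (0.286%), of which 33 were higher (0.278%) and 1 lower (0.00841%). Also without these 4 libraries, 2 of 10 members, Gstp1 and Gstt2, had an unadjusted p under 0.05, against 8.08% of tested genes. With the Y-linked level as covariate 0 of 10 members passed, beside 0.0247% of tested genes (0.0165% higher, 0.00823% lower). With the white adipocyte score 0 of 10 passed, beside 0.0494% (0.0411% higher, 0.00823% lower). Without vehicle replicates 2, 6 and 8, which held more muscle transcripts, 0 of 10 members passed or had an unadjusted p under 0.05, and their median log2 change was 0.07. Of all 11877 genes tested in that fit 0 passed, 12.0% had an unadjusted p under 0.05 and the median log2 change was 0.03. No member had groups that did not overlap, a state found for 0.576% of tested genes. In 4 of 10 members, Gsta4, Gstm1, Gstt1 and Gstk1, these 4 libraries all lay above the other 11, as they did for 8.18% of all tested genes.

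Among the theta enzymes, Gstt1 acts on small halogenated compounds and lies on chromosome 10 at 75783813 to 75798584, minus strand. Its vehicle libraries held 51.5 FPKM at the lowest, 69.3 at the median and 108.1 at the highest. BPS replicates 1, 2, 3, 4, 5, 6 and 8 held 70.2, 80.7, 66.8, 243.9, 203.6, 124.3 and 191.8 FPKM. The last 4 of these exceeded every vehicle library and the first 3 lay within the vehicle range. The log2 change of Gstt1 was 0.80 ± 0.280 (SE) with a 95% interval of 0.20 to 1.39 and a limma adjusted p of 0.131. Without the 4 libraries it was 0.03 ± 0.190 (SE; interval -0.38 to 0.44; limma adjusted p = 0.967). Adjusting for Y-linked transcripts gave a change of 0.38 ± 0.230 and adjusting for the white adipocyte score gave 0.41 ± 0.160, both SE. In the authors' deposited table the log2 ratio of Gstt1 was 0.88 with a q-value of 0.0286, the only member of the 10 below 0.05 there, beside 5.74% of 16747 genes.

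Gstt2, a theta enzyme encoded in the same stretch as Gstt1 at 75831842 to 75837419 on chromosome 10, had another pattern. Its vehicle libraries ranged from 79.8 FPKM through a median of 103.2 to 128.9. BPS replicates 1, 2 and 3 held 137.6, 135.6 and 162.2 FPKM, above every vehicle library. BPS replicates 4, 5, 6 and 8 held 103.3, 86.2, 92.3 and 126.6 FPKM, inside the vehicle range. Gstt2 had a log2 change of 0.20 ± 0.143 (SE; limma adjusted p = 0.400) over all libraries and 0.49 ± 0.148 (SE; interval 0.17 to 0.81; limma adjusted p = 0.341) without the 4. Gstt3, a further theta gene of the same 63.3 kb stretch, is not one of the 10 and was 10.4 ± 1.95 FPKM (SD, n = 8) in vehicle and 20.6 ± 10.3 (SD, n = 7) in BPS libraries. As a percentage of the vehicle mean, BPS replicates 4, 5, 6 and 8 held 335.3, 279.9, 170.8 and 263.6 for Gstt1 and 334.1, 277.9, 159.0 and 286.9 for Gstt3, but 99.5, 82.9, 88.9 and 121.9 for Gstt2.

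**Figure D2:**
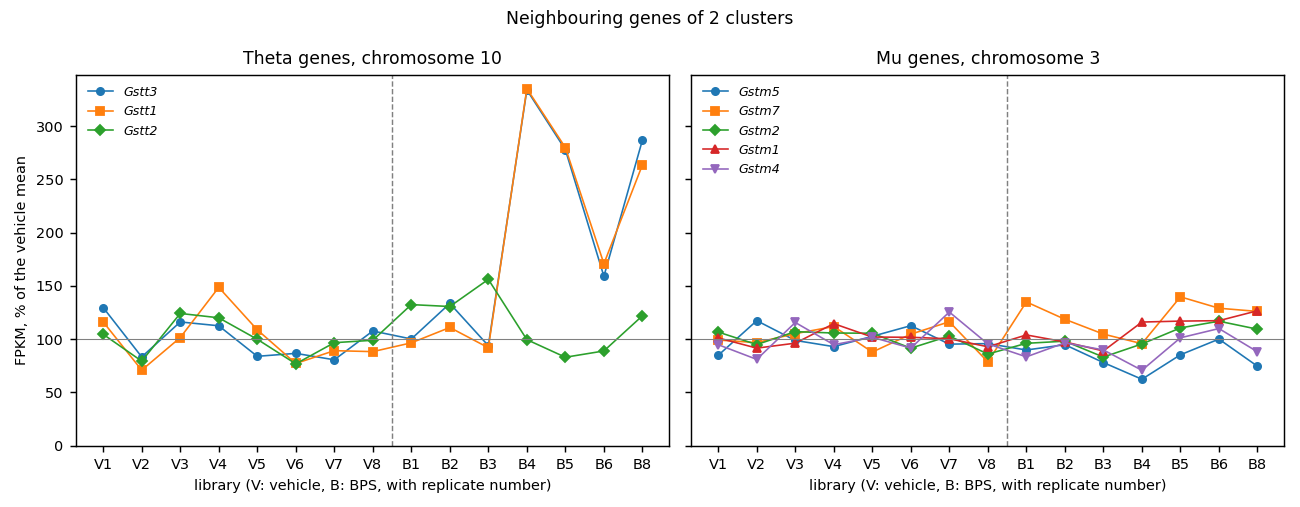
Level of each gene as a percentage of its vehicle mean in each library. Drawn are Gstt1, Gstt2 and Gstt3 of chromosome 10 and Gstm1, Gstm2, Gstm4, Gstm5 and Gstm7 of chromosome 3. Gstt4 and Gstm6 of the same stretches are not drawn. In BPS replicates 4, 5, 6 and 8 Gstt1 and Gstt3 lie at 159.0% or more, and Gstt2 lies between 82.9% and 121.9%.

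Of the alpha enzymes, Gsta4 had vehicle levels of 60.4 FPKM at the lowest, 79.9 at the median and 148.7 at the highest. BPS replicates 1, 2 and 3 held 92.7, 82.0 and 94.9 FPKM, and replicates 4, 5, 6 and 8 held 218.9, 195.4, 156.0 and 193.5. Again the last 4 were above every vehicle library and the first 3 were not. Gsta4 had a log2 change of 0.64 ± 0.255 (SE; interval 0.10 to 1.18; limma adjusted p = 0.162), and 0.03 ± 0.253 (SE; limma adjusted p = 0.973) without the 4. Gsta3, the alpha enzyme that detoxifies aflatoxin in mouse liver, had 15.2, 25.3 and 49.1 FPKM as the lowest, median and highest vehicle values. Its BPS replicates 1, 2, 3, 4, 5, 6 and 8 held 39.6, 23.5, 10.4, 60.9, 42.2, 37.8 and 47.9 FPKM, so the groups overlapped. The log2 change of Gsta3 was 0.48 ± 0.322 (SE; limma adjusted p = 0.371), -0.14 ± 0.385 without the 4 libraries and -0.01 ± 0.119 with the white adipocyte score as a covariate.

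The mu enzymes lie in a 149.3 kb stretch of chromosome 3. Gstm1 had 191.1, 210.3 and 239.2 FPKM as lowest, median and highest vehicle values. BPS replicates 1, 2 and 3 held 217.0, 203.3 and 185.6 FPKM, and replicates 4, 5, 6 and 8 held 242.2, 244.2, 245.0 and 264.4. The separation of the 4 from vehicle was narrow, and the log2 change of Gstm1 was 0.12 ± 0.0829 (SE; limma adjusted p = 0.364), or -0.05 ± 0.0939 without them. Gstm2 ranged from 97.8 to 121.7 FPKM in vehicle and from 94.5 to 132.9 in BPS libraries, with a log2 change of 0.01 ± 0.0810 (SE; limma adjusted p = 0.923) that was -0.11 without the 4. Of 50-base stretches in the Gstm1 transcripts, 19.9% also occurred in another gene, and of those of Gstm2 8.30%, so their levels rest partly on how reads were divided.

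Gstp1, the pi enzyme, which also binds the stress kinase JNK, had 470.3, 516.7 and 601.9 FPKM as lowest, median and highest vehicle values. BPS replicates 1, 2 and 3 held 447.3, 457.8 and 418.3 FPKM, below every vehicle library, and replicates 4, 5, 6 and 8 held 520.2, 525.6, 563.4 and 597.8. The log2 change of Gstp1 was -0.06 ± 0.0894 (SE; limma adjusted p = 0.717) over all libraries and -0.24 ± 0.0981 (SE; interval -0.45 to -0.03; limma adjusted p = 0.561) without the 4. Gstp1 shared 51.0% of its 50-base stretches with other genes, chiefly the neighbouring Gstp2, so its own level is uncertain. The sum of Gstp1 and Gstp2 was 618 ± 89.4 FPKM (SD, n = 8) in vehicle and 582 ± 75.7 (SD, n = 7) in BPS libraries.

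Gstk1, also known as an assembly factor of the adipocyte hormone adiponectin, had 86.4, 107.8 and 118.7 FPKM as lowest, median and highest vehicle values. BPS replicates 1, 2 and 3 held 117.0, 112.5 and 111.1 FPKM, and replicates 4, 5, 6 and 8 held 119.7, 139.0, 141.9 and 122.7. Gstk1 had a log2 change of 0.24 ± 0.0846 (SE; interval 0.06 to 0.42; limma adjusted p = 0.135), and 0.12 ± 0.108 (SE; limma adjusted p = 0.763) without the 4. Gsto1, which reduces dehydroascorbate, ranged from 102.0 to 153.4 FPKM in vehicle and from 116.7 to 144.1 in BPS libraries, with a log2 change of 0.07 ± 0.0945 (SE; limma adjusted p = 0.661), and 0.09 ± 0.133 without the 4. Mgst1, which also reduces lipid hydroperoxides, had 706.6, 1096 and 1311 FPKM as lowest, median and highest vehicle values. Its BPS replicates 1, 2, 3, 4, 5, 6 and 8 held 1133, 975, 1018.6, 1569, 1378, 1229 and 1467 FPKM, and replicates 4, 5 and 8 exceeded the vehicle maximum. Mgst1 had a log2 change of 0.22 ± 0.15 (SE; limma adjusted p = 0.369), and -0.02 ± 0.185 without the 4.

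**Figure D3:**
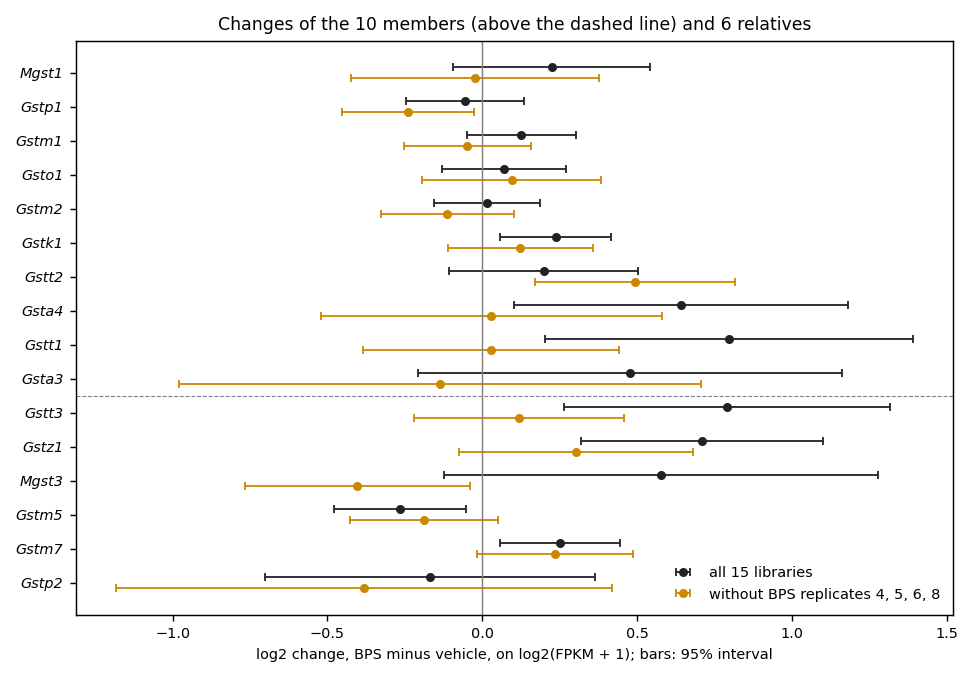
Log2 change (BPS minus vehicle, log2(FPKM + 1) scale) with 95% intervals for the 10 members and 6 relatives, over all 15 libraries (black) and without BPS replicates 4, 5, 6 and 8 (orange). Gstt1 and Gsta4 move from 0.80 and 0.64 to 0.03 each, and Gstt2 moves from 0.20 to 0.49.

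Of 25 further family genes listed, 22 were in the table and 19 were tested, and 0 passed the threshold. There were 11 positive changes, a median of 0.17 and 5 genes at an unadjusted p under 0.05. Of the 19, 57.9% were positive and 26.3% had an unadjusted p under 0.05, beside 58.5% and 23.1% of all tested genes. The 19 included Hpgds, Ptges, Ltc4s, Alox5ap, Clic1, Clic4 and Clic5, so these values are not of Gst and Mgst genes alone. The median was the log2 change of Clic4. Without the 4 libraries 10 of 19 were positive, with a median of 0.08, and 1 had an unadjusted p under 0.05. Over all tested genes 51.9% were then positive and 8.08% had an unadjusted p under 0.05. Gstz1, the zeta enzyme that isomerises maleylacetoacetate in tyrosine breakdown, was 308.7 ± 61.6 FPKM (SD, n = 8) in vehicle and 518.5 ± 165 (SD, n = 7) in BPS libraries, a log2 change of 0.71 ± 0.184 (SE; limma adjusted p = 0.0876). Without the 4 libraries the change of Gstz1 was 0.30 ± 0.173 (SE; limma adjusted p = 0.670). Mgst3, a membrane-bound relative with peroxidase activity, held 546.8, 316.4, 278.6 and 386.5 FPKM in BPS replicates 4, 5, 6 and 8, and 134.0, 109.5 and 95.2 in replicates 1, 2 and 3, around a vehicle mean of 150.5 ± 28.3 (SD, n = 8). Its log2 change was 0.58 ± 0.330 (SE; limma adjusted p = 0.298) with the 4 libraries and -0.40 ± 0.167 without them. Gstt3 had a log2 change of 0.79 ± 0.248 (SE; limma adjusted p = 0.113), and 0.12 ± 0.156 without them. Gstm5 and Gstm7, both mu genes, had log2 changes of -0.27 ± 0.10 and 0.25 ± 0.0916 (SE; limma adjusted p = 0.148 and 0.140), and -0.19 ± 0.109 and 0.23 ± 0.116 without the 4. In the authors' deposited table Gstt3, Gstz1 and Alox5ap, the arachidonate-presenting protein of leukotriene synthesis, had q-values of 0.0149, 0.0105 and 0.0358. A q-value under 0.05 was reached there by 5.74% of 16747 genes.

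The genes around the transferases were described by list, 136 tested genes of 174 listed, of which 4 passed, beside 0.411% of all tested genes. The lists were chosen with earlier results of these data known, so these shares are description only. Among phase I oxidation enzymes, which create the reactive groups that conjugation follows, 3 of 26 rose and 0 fell, with 20 positive and a median log2 change of 0.28, beside 0.346% higher, 58.5% positive and a median of 0.05 over all tested genes. Without the 4 libraries 1 of 26 passed, 21 were positive and the median was 0.16. Over all tested genes 0.286% then passed, 51.9% were positive and the median was 0.01. Cyp2b10, a cytochrome P450 known as a target of the receptor CAR, held 3.57 to 13.4 FPKM in vehicle and 10.2 to 53.5 in BPS libraries, a log2 change of 1.77 ± 0.323 (SE; limma adjusted p = 0.0400), and 2.11 ± 0.359 (SE; limma adjusted p = 0.0412) without the 4 libraries. Cyp4b1, a fatty acid hydroxylase, rose by 1.24 ± 0.192 (SE; limma adjusted p = 0.0264) on the log2 scale, and Fmo2, a flavin-containing monooxygenase, by 1.33 ± 0.275 (SE; limma adjusted p = 0.0482). Without the 4 libraries Cyp4b1 was at 1.00 ± 0.193 (limma adjusted p = 0.0629) and Fmo2 at 0.60 ± 0.165 (limma adjusted p = 0.295). Among 13 genes of conjugate breakdown, 9 were positive (median 0.17), 0 rose and 1 fell, Chac2, which cleaves glutathione, with a log2 change of -0.52 ± 0.107 (SE; limma adjusted p = 0.0482), and -0.48 ± 0.122 (limma adjusted p = 0.229) without the 4 libraries, when 5 of 13 were positive (median -0.19). These calls depended on single libraries and settings, with Cyp4b1 and Cyp2b10 called in 16 of 29 alternatives each, Fmo2 in 7 and Chac2 in 4. Their limma adjusted p ranged from 0.0185 to 0.320 for Cyp4b1, 0.0198 to 0.325 for Cyp2b10, 0.0321 to 0.350 for Fmo2 and 0.0449 to 0.350 for Chac2. Of the 50-base stretches of Cyp2b10 transcripts, 9.33% also occurred in another gene, most often Cyp2b13, so part of its level rests on how reads were divided.

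No gene passed in either direction among 14 of glutathione synthesis and recycling (8 positive, median log2 change 0.09), 20 glutathione and thiol peroxidases (9 positive, median -0.03) or 6 of conjugate export (4 positive, median 0.10). The same held for 16 other phase II enzymes (10 positive, median 0.23), 30 genes of the NRF2 pathway (16 positive, median 0.01), 12 xenobiotic receptors (10 positive, median 0.24) and 20 of reactive aldehyde clearance (17 positive, median 0.18). Over all tested genes 0.411% passed, 58.5% were positive and the median was 0.05. Without the 4 libraries 1 gene of these 7 lists passed, Ahr, beside 0.286% of all tested genes. The positive counts were then 4 of 13 for synthesis and recycling (median -0.04), 11 of 20 for peroxidases (median 0.02) and 4 of 6 for export (median 0.25). They were 8 of 16 for other phase II enzymes (median 0.00), 12 of 29 for the NRF2 pathway (median -0.04), 10 of 12 for receptors (median 0.14) and 12 of 20 for aldehyde clearance (median 0.04), beside 51.9% of all tested genes (median 0.01). Sult1a1, a phenol sulfotransferase, had a log2 change of 0.98 ± 0.267 (SE; limma adjusted p = 0.0936), and 0.34 ± 0.230 without the 4 libraries. Gpx4, the selenoenzyme that reduces phospholipid hydroperoxides, had a log2 change of -0.53 ± 0.181 (SE; limma adjusted p = 0.123), and -0.26 ± 0.151 (SE; limma adjusted p = 0.673) without them. Ahr, the aryl hydrocarbon receptor, held 7.17, 9.02 and 10.6 FPKM in BPS replicates 1, 2 and 3, above the vehicle range of 4.21 to 6.12, and 4.62, 4.93, 5.67 and 7.13 in replicates 4, 5, 6 and 8. Its log2 change was 0.35 ± 0.141 (SE; limma adjusted p = 0.162) with the 4 libraries and 0.69 ± 0.122 (SE; limma adjusted p = 0.0414) without them, the only call of Ahr in the 29 alternatives.

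Within vehicle libraries the members were set against mean marker levels, a family of 30 relations chosen after values had been seen. Gsta3 followed the white adipocyte score (Pearson r = 0.953, exact permutation p = 0.000298, adjusted 0.00893; Spearman rho = 0.952, exact permutation p = 0.00114, adjusted 0.0335; n = 8), and r was 0.925 without the 2 libraries farthest from the median score. Gsta4 followed the brown adipocyte score (r = 0.902, exact permutation p = 0.00365, adjusted 0.0387; rho = 0.857, exact permutation p = 0.0107, adjusted 0.107; n = 8), with r = 0.856 without the 2 farthest. Gsta4 was also lower where the skeletal muscle score was higher (r = -0.918, exact permutation p = 0.00387, adjusted 0.0387; rho = -0.738, exact permutation p = 0.0458, adjusted 0.196; n = 8), with r = -0.582 without the 2 farthest. Gsto1 had r = -0.864 with that score (exact permutation p = 0.00585, adjusted 0.0439; rho = -0.738, exact permutation p = 0.0458, adjusted 0.196; n = 8), and r = -0.772 without the 2 farthest. Mgst1 was lower where the skeletal muscle score was higher (r = -0.838, exact permutation p = 0.0126, adjusted 0.0757; rho = -0.929, exact permutation p = 0.00223, adjusted 0.0335; n = 8), with r = -0.876 without the 2 farthest. Vehicle replicate 2 had both the lowest brown adipocyte score (6.12) and the highest skeletal muscle score (11.2) in vehicle, so the relations of Gsta4 to these scores are not separate. No correlation was computed over the BPS libraries. In BPS replicates 4, 5, 6 and 8, Gsta4 was 156.0 to 218.9 FPKM at brown adipocyte scores of 5.02 to 6.78. In BPS replicates 1, 2 and 3, Gsta4 was lower, 82.0 to 94.9 FPKM, at higher scores of 6.94 to 7.12.

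**Figure D4:**
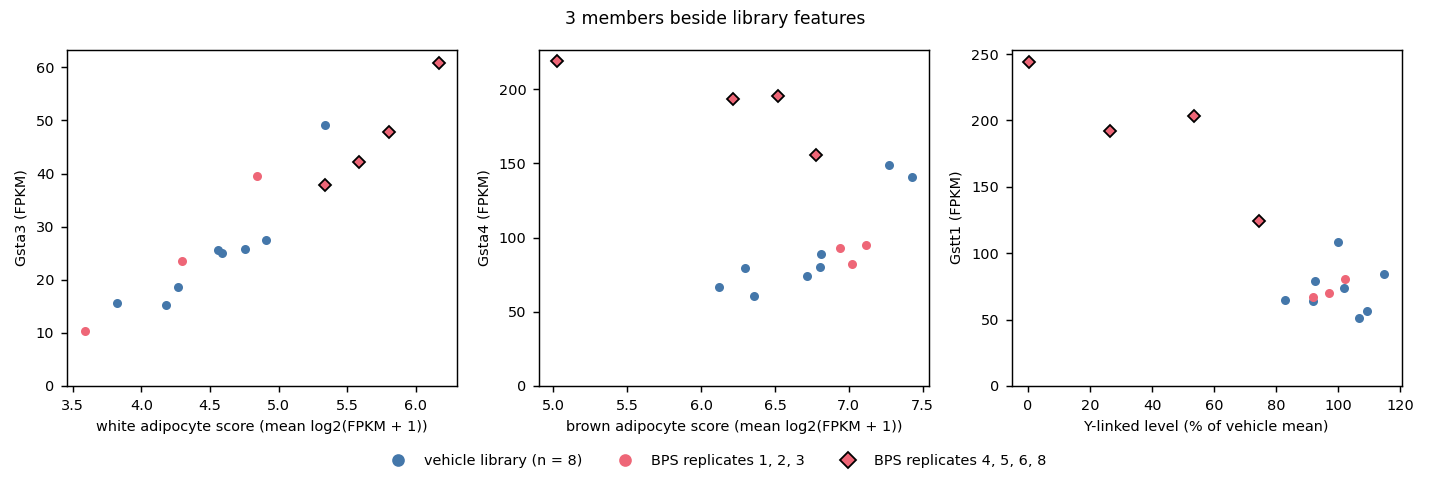
Gsta3 against the white adipocyte score, Gsta4 against the brown adipocyte score and Gstt1 against the Y-linked level, 1 point a library. BPS replicates 4, 5, 6 and 8 have white adipocyte scores of 5.34 to 6.17, and 3 of them lie above the vehicle maximum of 5.34.

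The genes whose pattern over the 15 libraries was most like a member's were found from the mean absolute difference of z-scores after each group's mean was removed, for which the median over all genes was 1.02 for Gsta3. Differences among the BPS libraries stayed in these patterns, including those between replicates 4, 5, 6 and 8 and replicates 1, 2 and 3. The nearest genes lie below that median by selection. Retn, a white adipocyte marker that encodes resistin, was nearest to Gsta3 at 0.157, and Slc25a10, the mitochondrial dicarboxylate carrier, came next at 0.159. Washc2 was nearest to Gstt1 at 0.175 and Pxmp4 nearest to Mgst1 at 0.167. Gsta4 was nearest to Mocs2 at 0.218 and then to Akr1b8, an aldo-keto reductase, at 0.233. Gstm2 and Gstk1 were within the nearest pair of each other at 0.374.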

How the data were processed

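The authors deposited FPKM for 15 libraries, with their own log2 ratio, p-value and q-value per gene. RSEM 1.3.1, HISAT2 2.1.0, DESeq2 1.4.5 and Bowtie2 are named, on GRCm38.p6, per the submitters' processing notes. Counts, depth and strand setting are not stated there, and a gene cannot be told apart from an antisense or overlapping partner. The FPKM form of the planned test was used: limma 3.58.1 (R 4.3.3; trend, robust) on log2(FPKM + 1), which understates changes of low genes, for the 12156 genes that reached 1 FPKM in 7 or more libraries, Benjamini-Hochberg over all of them, threshold 0.05. The fit was tested on simulated data with independent noise and, for each changed gene, the same shift in every BPS library. That test does not cover BPS libraries that stand apart together. Alternatives numbered 29, of which 15 left out 1 library. Columns of other samples numbered 0. Members and lists were chosen with earlier results of these data known. Named genes were all members and relatives, up to 4 genes of smallest p per list and 2 of most similar pattern per member, of which those that the results turn on are printed. Sharing was counted over 50-base stretches of GENCODE M21 transcripts.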

Additional observations from a re-analysis of the deposited data

Results flagged for a closer look

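In Dixon's test, applied to 64 groups of values (each family gene in each group), 5 values stood far from the rest of their group, and chance alone flags about 5% of groups. Gsta3 in vehicle replicate 4 was the highest of its group at 49.06 FPKM, and so was Gstm1 in the same library at 239.16 FPKM. Gsta1 was highest in vehicle replicate 2 at 1.14 FPKM and in BPS replicate 6 at 0.63 FPKM, and Gsta2 was highest in vehicle replicate 2 at 3.9 FPKM. Gsta1 and Gsta2 shared 89.7% and 47.4% of their 50-base stretches with other genes and did not pass the filter on low values.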

How the results depend on the processing

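No member passed under any of the 29 alternatives, and 273 of 290 member changes kept their sign. Genes called higher and lower (42 and 8) became 15 and 2 with a pseudocount of 5, 8 and 1 with no filter, 24 and 5 with a filter of 5 FPKM, 59 and 20 with median scaling, 1 and 1 with the muscle score, 2 and 1 with the Y-linked level, 5 and 1 with the white adipocyte score, and 33 and 1 without BPS replicates 4, 5, 6 and 8. Without vehicle replicates 2, 6 and 8, limma called 0 and 0, with 1420 genes at an unadjusted p under 0.05. Leaving out 1 library gave 0 to 59 higher and 1 to 23 lower; higher calls were 26, 1, 12, 9, 1, 1 and 0 without vehicle replicates 1, 2, 3, 5, 6, 7 and 8, and 2, 3, 2, 9 and 0 without BPS replicates 3, 4, 5, 6 and 8. At the 0 higher calls, limma gave 2407 (vehicle replicate 8) and 2098 (BPS replicate 8) genes in either direction at an unadjusted p under 0.05. Calls in the pathway lists (4) were 2 with a pseudocount of 5, 1 with no filter, 2 with the stricter filter, 2 with the block, 0 with the muscle score, 1 with either other covariate, 2 without the 4 BPS libraries, 0 without vehicle replicates 2, 6 and 8, and 0 to 4 leaving out 1 library. Signs turned for Gstp1 with quantile normalization (0.0254), Gstm2 with median scaling (-0.0299), the muscle score (-0.0146), the white score (-0.0349), without the 4 libraries (-0.11), without vehicle replicates 2, 6 and 8 (-0.0663) and leaving out 1 library (-0.0204 to 0.0608), and Gsto1 with the muscle score (-0.00199) and without vehicle replicates 2, 6 and 8 (-0.0471). They also turned for Gstp2 with the muscle score (0.11) and without those vehicle libraries (0.24), Gsta3 with the white score (-0.00676), and, without the 4 libraries, Gsta3 (-0.14), Gstm1 (-0.0481), Mgst1 (-0.0241) and Mgst3 (-0.40); the cause was not tested. The labels do not state whether replicate numbers pair libraries. Correlations of same-numbered deviations ran from -0.418 to 0.583, and 4 of 7 were over 0.1. Of 7 BPS libraries, 3 were closest to their own number. These values cannot settle whether libraries were paired. The fit with the replicate block called 34 higher, 4 lower and 0 members. Count-based tests were not run because the values are not counts, and unknown depth limits what can be said of low genes.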
